A study of Mus musculus with 7 samples.

Results

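The theca androgen synthesis genes are 10 genes of steroid production and theca cell identity, *Star*, *Cyp11a1*, *Fdx1*, *Fdxr*, *Hsd3b1*, *Cyp17a1*, *Por*, *Lhcgr*, *Nr5a1* and *Insl3*, chosen by name from what they are known to do and not from their values. All 10 were among the 19233 genes kept for testing by the filter on low counts, of 52230 genes in all. They were compared between KO and WT ovarian stroma, the residual ovary after follicles had been punctured to remove granulosa cells, in RNA-seq libraries collected 8 h post-hCG. There were 4 WT libraries (replicates 1 to 4, genotype PGR +/+) and 3 KO libraries (replicates 2 to 4, genotype PGR -/-), from littermates of the strain given as PRKO; Pgrtm1Bwo. All mice, of both genotypes, had received 5 IU PMSG and, 44 h later, 5 IU hCG. Their age is given as 21 to 27 days in the protocol and as 21 to 25 days in the design text. Each library held tissue pooled from 3 mice, so a replicate is a pool and not an animal. The null allele is global, so all cells of the KO mice carried it, and the tissue holds theca, vascular and immune cells beside stromal cells. Total expected counts ranged from 50390879 to 63416875 per WT library and from 47372446 to 57584042 per KO library.

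Theca cells form the steroid-producing layer around the ovarian follicle and answer to luteinizing hormone, whose action hCG mimics. Cholesterol is carried into their mitochondria by the STAR protein and is cut there to pregnenolone by CYP11A1, which draws electrons from ferredoxin (FDX1) and ferredoxin reductase (FDXR). HSD3B1 then forms progesterone, and CYP17A1, fed with electrons by the reductase POR, turns such progestins into androgens, which granulosa cells convert to oestrogens. *Cyp17a1* and *Insl3*, a peptide hormone gene, mark theca cells within the follicle, whereas *Star*, *Cyp11a1*, *Lhcgr* and *Nr5a1* are also used by granulosa and luteal cells.

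Both theca markers were present in every library. *Cyp17a1* ranged from 431 to 1203 CPM (counts scaled to library size, TMM-normalized) and *Insl3* from 20.5 to 48.6 CPM over the 7 libraries. *Pgr*, the gene that the null allele disrupts, had 19.5, 31.0, 21.5 and 16.8 CPM in the WT libraries (1 to 4) and 6.13, 6.52 and 7.56 CPM in the KO libraries (2 to 4), lower in every KO than in any WT library. Markers of granulosa cells remained in the tissue, and their summed level was 3137 to 4470 CPM in WT and 3855 to 4687 CPM in KO. In bulk tissue, fewer theca cells and less RNA per theca cell cannot be told apart.

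None of the 10 genes was called as different between KO and WT, with thresholds set at 0.05 for the adjusted p and at 0.5 for the absolute log2 fold change, in edgeR's quasi-likelihood test, which called 0.0104% of all genes tested. With DESeq2 none of them passed either, where 0.754% of all genes did. *Pgr*, the disrupted gene itself, was also not called in edgeR, with a log2 fold change of −1.72 (edgeR adjusted p = 0.0544). A gene that was not called is therefore not shown to be unchanged. *Star* was the 1 gene of the 10 with an unadjusted p under 0.05 in edgeR, against 8.94% of all genes (5.1% lower and 3.84% higher in KO), and it was lower in KO. The log2 fold change was below 0 for 7 of the genes and above 0 for 3, against 50.3% of all genes below 0. Its median was −0.21 over the 10 genes and −0.0010 over all genes tested, and the median absolute log2 fold change was 0.21 against 0.097. The spread behind these values was uneven, and WT replicate 4 had the highest level of 5 of the 10 genes but the lowest of *Insl3*.

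**Figure D1:**
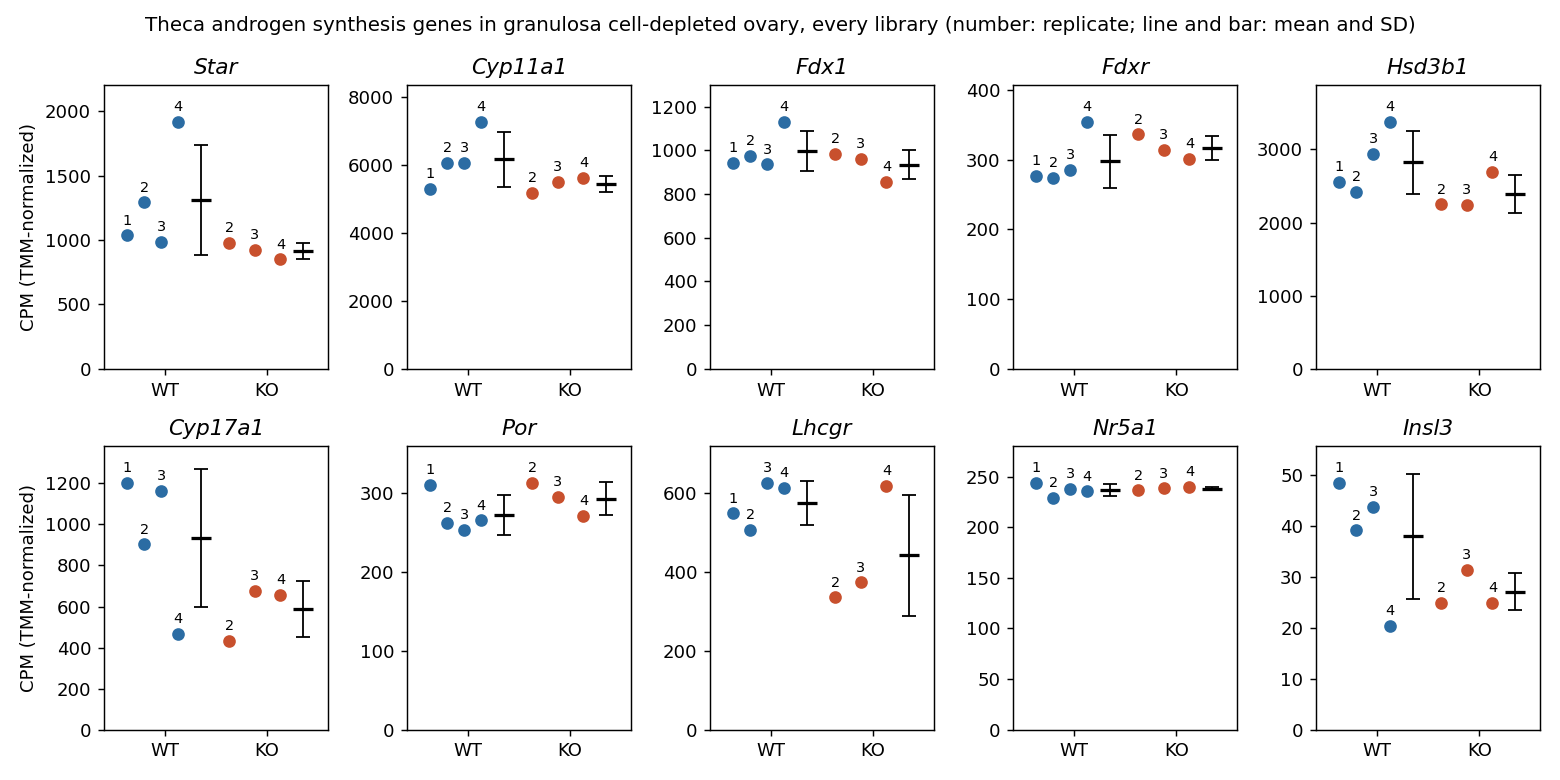
Level of each of the 10 genes in CPM (TMM-normalized, linear axis from 0) in every WT (blue) and KO (red) library, with the replicate number above each point and the mean and SD beside the points. WT replicate 4 lies highest for *Star* at 1916 CPM and lowest of the WT libraries for *Cyp17a1* at 467 CPM, while *Nr5a1* stays between 229 and 244 CPM in all 7 libraries.

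On the TPM scale, which takes transcript length into account, levels of different genes can be compared. In WT, *Cyp11a1* stood first with a level of 4667 ± 782 TPM (SD, n = 4), followed by *Hsd3b1* with 2643 ± 464 TPM and *Fdx1* with 1965 ± 236 TPM. *Star* had 901 ± 366 TPM and *Cyp17a1* 843 ± 292 TPM, a pair of neighbours that did not differ beyond their spread. Then came *Fdxr* with 276 ± 36.0 TPM, *Lhcgr* with 200 ± 24.6 TPM and *Por* with 175 ± 7.51 TPM. *Insl3* with 129 ± 39.8 TPM and *Nr5a1* with 126 ± 4.07 TPM were lowest, again closer to each other than their spread. In KO the order was the same down to *Fdxr*, and below it *Por* (197 ± 5.94 TPM, SD, n = 3) stood above *Lhcgr* (139 ± 49.8 TPM) and *Nr5a1* (131 ± 6.74 TPM) above *Insl3* (94.7 ± 11.9 TPM). *Cyp11a1*, at 4204 ± 369 TPM, was again the most abundant. The WT libraries of *Hsd3b1* and *Fdx1*, and those of *Lhcgr* and *Por*, also overlapped, as did the KO libraries of *Star* and *Cyp17a1*, of *Por* and *Lhcgr*, and of *Lhcgr* and *Nr5a1*.

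*Star* lies on chromosome 8 of GRCm39 from 26296583 to 26306010 on the plus strand. Its level was 1036, 1292, 988 and 1916 CPM in the WT libraries (1 to 4) and 975, 924 and 849 CPM in the KO libraries (2 to 4). Each KO library was lower than each WT library, but KO replicate 2 was close under WT replicate 3, and WT replicate 4 stood well above the rest. This was the 1 gene of the 10 without overlap on the CPM scale, where 9.05% of all genes tested had no overlap, 5.12% with KO below WT and 3.93% with KO above. On the TPM scale the groups of *Star* overlapped, with 601 TPM in WT replicate 1 and 608 to 667 TPM in KO. The WT mean was 1308 ± 427 CPM (SD, n = 4) and the KO mean 916 ± 63.2 CPM (SD, n = 3). The log2 fold change was −0.51 (SE 0.21, 95% interval −0.997 to −0.031, edgeR adjusted p = 0.529), and without WT replicate 4 it was −0.26 (edgeR adjusted p = 0.537).

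*Cyp11a1*, on chromosome 9 from 57913694 to 57935933 on the plus strand, encodes the side-chain cleavage enzyme. It had 5311, 6075, 6064 and 7278 CPM in WT and 5195, 5511 and 5633 CPM in KO. WT replicate 4 was again highest, and WT replicate 1 fell among the KO libraries. Between the genotypes the log2 fold change was −0.18 (SE 0.11, 95% interval −0.44 to 0.08, edgeR adjusted p = 0.690), and without WT replicate 4 it was −0.09.

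The electron carriers of this step went in opposite directions from each other by small amounts. *Fdx1*, on chromosome 9 from 51852253 to 51875291 on the minus strand, had 941, 975.5, 935 and 1130 CPM in WT and 982, 962 and 857 CPM in KO, and the log2 fold change was −0.09 (SE 0.090, edgeR adjusted p = 0.815). *Fdxr*, on chromosome 11 from 115158844 to 115168006 on the minus strand, had 277, 274, 285 and 354 CPM in WT and 336, 313 and 302 CPM in KO, and the log2 fold change was 0.09 (SE 0.097, edgeR adjusted p = 0.833). In both genes the groups overlapped and WT replicate 4 was highest, and without it the log2 fold changes were −0.02 for *Fdx1* and 0.19 for *Fdxr*. The ratio of *Fdx1* to *Fdxr* in TPM was 7.14, 7.32, 7.04 and 7.001 in WT and 5.84, 6.21 and 6.04 in KO. The groups of this ratio did not overlap, with means of 7.12 ± 0.142 (SD, n = 4) and 6.03 ± 0.185 (SD, n = 3). It was picked after its values were seen from the 45 ratios of the 10 genes, of which 5 (11.1%) did not overlap, all lower in KO, near the 8.89% found among the ratios of all pairs of genes tested. All but 1 of these 5 ratios had *Fdxr* as the divisor.

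*Hsd3b1* lies on chromosome 3 from 98757367 to 98767116 on the minus strand, and its enzyme makes progesterone from pregnenolone. It had 2551, 2422, 2939 and 3375 CPM in WT and 2248, 2241 and 2694 CPM in KO. KO replicate 4 lay within the WT range and the other KO libraries below it. The log2 fold change was −0.24 (SE 0.13, 95% interval −0.53 to 0.06, edgeR adjusted p = 0.641), and without WT replicate 4 it was −0.13. The other members of this enzyme family were scarce. Those on chromosome 3 resemble it closely in sequence and can share its reads. Of these, *Hsd3b2* reached 9.90 CPM and *Hsd3b6* 1.61 CPM at most, while *Hsd3b5* and *Hsd3b9* had no read in any library. *Hsd3b7*, on chromosome 7, reached 32.3 CPM at most.

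*Cyp17a1*, the gene of the androgen-forming enzyme, lies on chromosome 19 from 46655604 to 46661611 on the minus strand. It had 1203, 903, 1162 and 467 CPM in the WT libraries (1 to 4) and 431, 674 and 655 CPM in the KO libraries (2 to 4). Of the WT libraries, replicates 1 to 3 lay above every KO library and replicate 4 lay among them. The WT mean was 934 ± 338 CPM (SD, n = 4), and the KO mean of 587 ± 136 CPM (SD, n = 3) was 62.8% of it. *Cyp17a1* had a log2 fold change of −0.67, the most negative of the 10 genes (SE 0.30, 95% interval −1.36 to 0.02, edgeR adjusted p = 0.568). Without KO replicate 2 it was −0.49 in edgeR (adjusted p = 0.914). Without WT replicate 4, a setting chosen after the values were seen for DESeq2, it was −0.88 in edgeR (adjusted p = 0.240), and DESeq2 then called it with −0.89 and an adjusted p of 7.23e-05 in DESeq2. *Por*, on chromosome 5 from 135698887 to 135764182 on the plus strand, whose reductase serves CYP17A1 and many other P450 enzymes, had 310, 262, 254 and 266 CPM in WT and 314, 295 and 272 CPM in KO. Its groups overlapped through WT replicate 1, with a log2 fold change of 0.10 (SE 0.085, 95% interval −0.09 to 0.30, edgeR adjusted p = 0.771). On the TPM scale the groups of *Por* did not overlap, at 166 to 185 TPM in WT and 191 to 202.4 TPM in KO, with a log2 difference of 0.17 and an adjusted p of 0.530 in limma. *Por* was the 1 gene of the 10 without overlap in TPM, against 8.13% of all genes tested.

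*Insl3* lies on chromosome 8 from 72141858 to 72143225 on the plus strand. It had 48.6, 39.2, 43.8 and 20.5 CPM in the WT libraries (1 to 4) and 25.0, 31.4 and 25.0 CPM in the KO libraries (2 to 4). As with *Cyp17a1*, WT replicates 1 to 3 lay above every KO library, and WT replicate 4 lay below them all. The WT mean was 38.0 ± 12.3 CPM (SD, n = 4) and the KO mean 27.1 ± 3.67 CPM (SD, n = 3), and the log2 fold change was −0.49 (SE 0.25, 95% interval −1.06 to 0.08, edgeR adjusted p = 0.609). Without WT replicate 1 it was −0.34 in edgeR (adjusted p = 0.751). Without WT replicate 4 it was −0.69 in edgeR (adjusted p = 0.168), and DESeq2 then called *Insl3* with an adjusted p of 1.51e-05 in DESeq2. In that DESeq2 fit 0.837% of all genes were called, and *Cyp17a1* and *Insl3* were the 2 called genes of the 10. *Insl3* lies inside the span of *Jak3* on the same strand, and *Jak3* had 8.20 to 11.2 TPM over the 7 libraries.

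**Figure D2:**
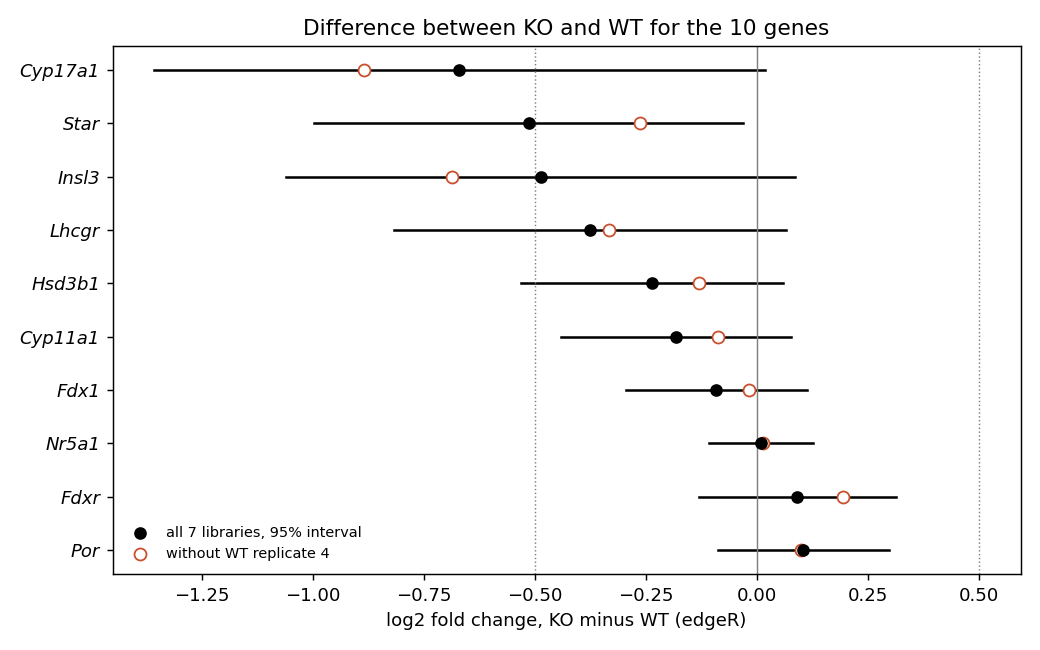
Log2 fold change between KO and WT (KO minus WT) of each of the 10 genes in edgeR, with its 95% interval over all 7 libraries (black) and the value without WT replicate 4 (open circles), and dotted lines at the fold-change threshold of 0.5. Leaving out this library moved *Cyp17a1* from −0.67 to −0.88 and *Insl3* from −0.49 to −0.69, but *Star* from −0.51 to −0.26.

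The promoters of *Cyp17a1*, *Insl3* and *Star* are printed because these genes had the most negative log2 fold changes of the 10 while WT replicate 4 was low for the first and second and high for *Star*. Each is the stretch of 160 bases that ends just before the start of the most-read transcript, read from the GRCm39 genome on the strand of the gene, with the start taken from GENCODE M39. For *Star* this transcript was Star-201. Its other form, Star-202, starts further upstream at 26296583 and made up 44.6% to 53.8% of the TPM of the gene. The stretch before that start is not printed. Capitals mark AAGGTC, a core found in binding sites of NR5A1, or its reverse complement GACCTT, searched on both strands over 250 bases before the start. Variants of this core were not searched, so a promoter without capitals is not shown to lack a site. The core is part of the longer motif AAGGTCA, which was searched first.

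*Cyp17a1* promoter, chr19:46661612-46661771, minus strand: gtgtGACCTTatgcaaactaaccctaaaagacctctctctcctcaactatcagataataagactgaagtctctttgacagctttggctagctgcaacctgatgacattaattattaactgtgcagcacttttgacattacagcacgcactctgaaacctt

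*Insl3* promoter, chr8:72141698-72141857, plus strand: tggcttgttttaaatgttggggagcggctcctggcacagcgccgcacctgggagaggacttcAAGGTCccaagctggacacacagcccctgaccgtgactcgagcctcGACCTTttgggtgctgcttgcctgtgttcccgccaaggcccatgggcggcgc

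*Star* promoter, chr8:26298333-26298492, plus strand: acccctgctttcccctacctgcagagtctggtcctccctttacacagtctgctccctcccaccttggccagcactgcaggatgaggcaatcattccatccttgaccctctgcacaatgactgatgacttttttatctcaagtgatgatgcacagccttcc

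The letters AAGGTC were found on either strand in the promoters of 3 of the 10 genes, *Cyp17a1*, *Insl3* and *Nr5a1*, and in 10.6% of the promoters of all genes searched. In *Cyp17a1* they lie 156 to 151 bases before the start on the strand opposite to the gene. *Insl3* has them at 98 to 93 bases before the start and, reversed, at 52 to 47 bases. Of the 10 promoters, *Cyp17a1* was the 1 that held AAGGTCA, against 3.45% of all promoters. TGTTCT, a half-site of the element bound by the progesterone receptor, was found in *Cyp11a1*, *Cyp17a1* and *Lhcgr* and in 13.5% of all promoters. TATAAA was in none of the 10 and in 9.25% of all promoters. A match describes the letters in this window and is no measurement of binding.

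*Lhcgr* encodes the receptor for luteinizing hormone and hCG and lies on chromosome 17 from 89023909 to 89099473 on the minus strand. It had 549, 508, 627 and 614 CPM in the WT libraries (1 to 4) and 336, 374 and 618 CPM in the KO libraries (2 to 4). KO replicates 2 and 3 lay below every WT library, while KO replicate 4 lay near the top of the WT range. The WT mean was 575 ± 55.8 CPM (SD, n = 4) and the KO mean 443 ± 153 CPM (SD, n = 3), and the log2 fold change was −0.38 (SE 0.19, 95% interval −0.82 to 0.07, edgeR adjusted p = 0.609). Without KO replicate 4 it was −0.69, with an adjusted p of 0.117 in edgeR, the lowest of any of the 10 genes in the edgeR fits that each left out a library. Without KO replicate 2 it was −0.21 (edgeR adjusted p = 0.946) and without KO replicate 3 it was −0.26, so that the size of the difference rested on which KO libraries were kept. Without WT replicate 4 it was −0.33, and with transcript length offsets −0.58 (edgeR adjusted p = 0.411).

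The authors' files estimate each transcript separately, which allows the forms of *Lhcgr* to be compared, although Salmon divides reads shared between them and that uncertainty did not enter the fit. Of the 36 transcripts of the 10 genes, 33 were kept by the filter and none was called in edgeR, where 0.00725% of all transcripts were. An unadjusted p under 0.05 was found for 4 of them, against 4.48% of all transcripts tested. Lhcgr-202 and Lhcgr-203 were lower in KO, whereas Fdxr-202 (log2 fold change 0.43) and Cyp11a1-204 (0.27) were higher, and the groups of 3 did not overlap on the CPM scale, against 6.2% (3.2% with KO lower, as in all of these 3). Lhcgr-202 and Lhcgr-203 met both measures. This fit was added after the gene values were seen.

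Lhcgr-202, annotated as a retained intron of 653 bases and 6 exons from 89072305 to 89099399, had 55.7, 58.3, 59.1 and 81.6 TPM in WT and 24.6, 27.1 and 37.1 TPM in KO. Every KO library, replicate 4 included, was lower than every WT library. Lhcgr-202 had a log2 fold change of −1.16 (SE 0.19, 95% interval −1.61 to −0.72, edgeR adjusted p = 0.376). It made up 28.0% to 35.6% of the TPM of the gene in WT and 18.9% to 23.6% in KO. Lhcgr-203, a form subject to nonsense-mediated decay, had 22.0, 24.4, 27.9 and 25.2 TPM in WT and 12.5, 14.4 and 22.1 TPM in KO, so that on this scale WT replicate 1 was just under KO replicate 4. Its log2 fold change, from counts, was −0.66 (SE 0.17, edgeR adjusted p = 0.926). Lhcgr-201, the full-length coding form of 11 exons, had 95.2, 97.1, 120 and 118 TPM in WT and 64.4, 73.0 and 132 TPM in KO. KO replicate 4 had the highest level of this form of all libraries, and its log2 fold change was −0.33 (SE 0.23, 95% interval −0.86 to 0.21). The full-length form made up 51.3% to 57.0% of the TPM of the gene in WT and 61.8% to 67.2% in KO. Of 32 transcript shares of the 10 genes, chosen with their values known, the groups of 3 did not overlap (Lhcgr-201, Lhcgr-202 and Fdxr-202), against 5.03% of the shares of all transcripts tested in genes with more than 1.

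**Figure D3:**
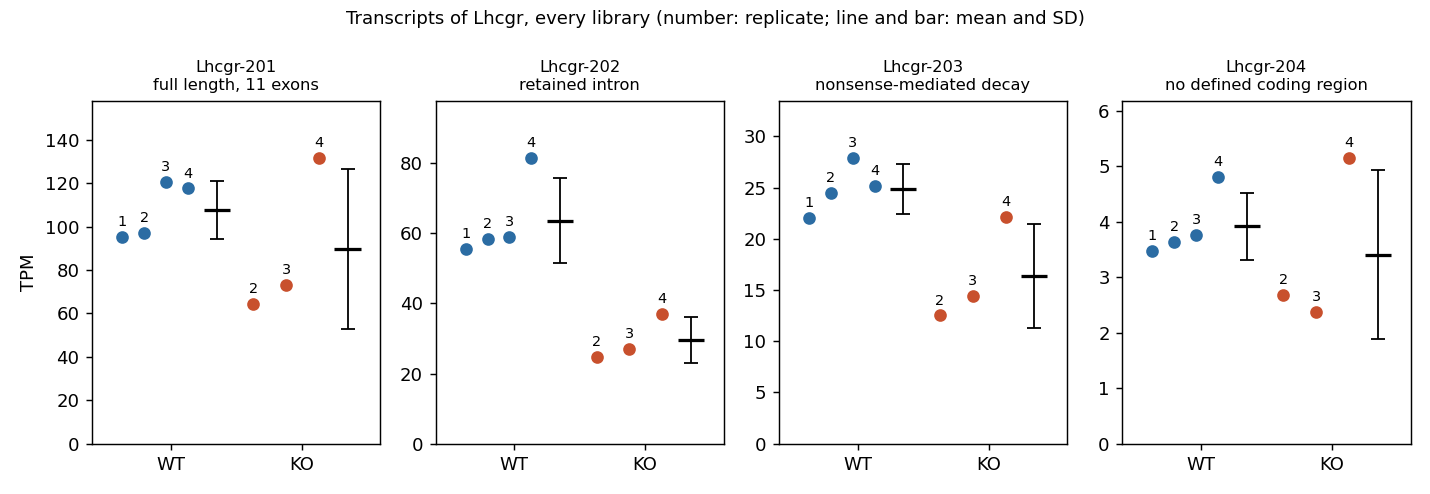
Level in TPM (linear axis from 0) of the 4 annotated transcripts of *Lhcgr* in every WT (blue) and KO (red) library, with replicate numbers and the mean and SD beside the points. Lhcgr-202 is at 55.7 to 81.6 TPM in WT and 24.6 to 37.1 TPM in KO, whereas KO replicate 4 lies above the WT libraries for Lhcgr-201 at 132 TPM.

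*Nr5a1*, the gene of the nuclear receptor that drives transcription of many steroid enzyme genes, lies on chromosome 2 from 38581468 to 38604642 on the minus strand. It had 244, 229, 238 and 235 CPM in WT and 236, 238 and 239 CPM in KO. This was the tightest spread of the 10 genes, and the highest library was 1.07 times the lowest. The log2 fold change was 0.01 with a 95% interval of −0.11 to 0.12 (SE 0.051, edgeR adjusted p = 0.976). In the RNA of the whole tissue, this interval leaves no room for a fall of the size estimated for *Cyp17a1*, *Star* or *Insl3*. *Nr5a1* is also used by granulosa and luteal cells, so its level in theca cells alone was not measured.

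The 10 genes thus varied between libraries in different ways. *Cyp17a1* and *Insl3* shared 1 pattern, high in WT replicates 1 and 3, lower in WT replicate 2 and low in WT replicate 4 and the KO libraries. *Star*, *Cyp11a1* and *Hsd3b1* shared the opposite position of WT replicate 4. Likeness was measured over the 7 libraries as the root-mean-square difference of log2 CPM after subtracting the mean of each gene, among 10908 genes. By this measure *Insl3* was the 6th nearest gene to *Cyp17a1*, with a difference of 0.197 where the median of all genes was 0.553, and *Star* was at rank 10664 with 0.740. The nearest to *Cyp17a1* were *Chrdl1* (0.0972), *Dpep1* (0.172), *Col4a4* (0.178), *Aldh1a1* (0.182) and *Adamtsl2* (0.184). *Chrdl1*, which encodes a secreted BMP antagonist, had 28.3, 19.7, 25.4 and 12.6 CPM in WT and 10.6, 15.6 and 15.2 CPM in KO. *Aldh1a1*, a gene of retinoic acid synthesis, had 702, 460, 675 and 325 CPM in WT and 284, 389 and 308 CPM in KO. The nearest to *Insl3* were *Tgm1* (0.122), *Bmp2* (0.130), *Ttyh1* (0.138), *Pkdcc* (0.144) and *Gpr27* (0.162), against a median of 0.445. *Bmp2*, which encodes a bone morphogenetic protein, had 49.4, 38.4, 46.7 and 25.8 CPM in WT and 29.6, 38.0 and 29.7 CPM in KO. All points of this measure share the same 7 libraries, and it is given as a description.

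**Figure D4:**
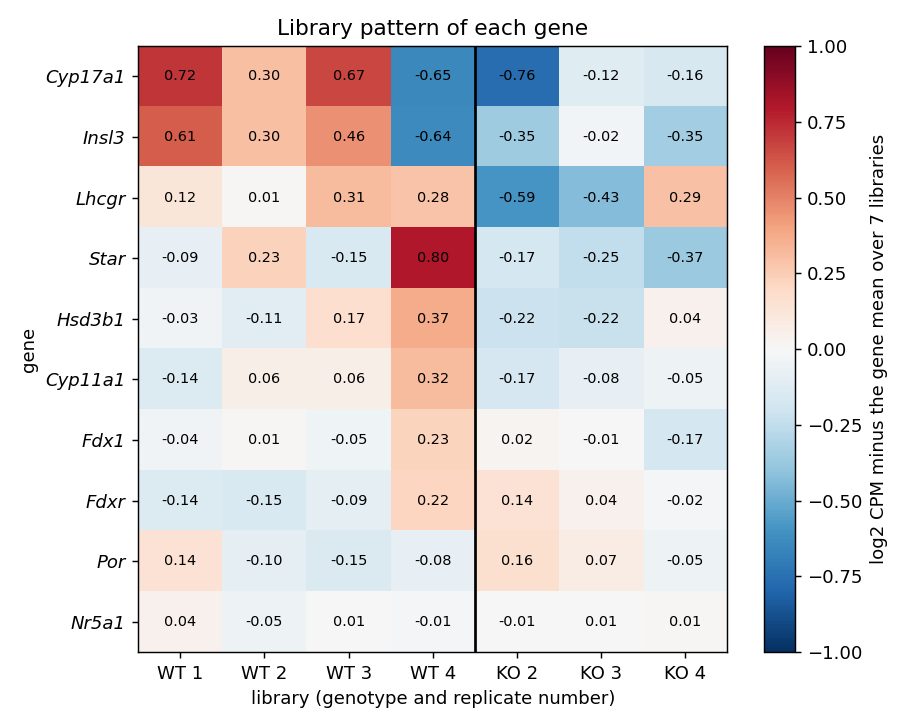
Log2 CPM of each gene minus its mean over the 7 libraries, with red above and blue below the mean and a black line between WT and KO. In WT replicate 4, *Cyp17a1* and *Insl3* lie 0.65 and 0.64 below their means while *Star* lies 0.80 above its own.

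Marker levels of other cell types also differed between libraries or genotypes. The mean log2 CPM of 10 granulosa markers was 7.45, 6.94, 7.36 and 6.83 in WT replicates 1 to 4. The WT libraries thus stood in the same order as for *Cyp17a1*. In KO replicates 2 to 4 the mean was 7.08, 7.15 and 7.50. There replicate 4 was the highest of all libraries, whereas *Cyp17a1* was highest of KO in replicate 3. The markers did not all share this order. *Cyp19a1*, the granulosa enzyme that makes oestrogens from androgens, had 76.4, 28.5, 55.9 and 17.2 CPM in WT and 24.5, 42.7 and 55.9 CPM in KO. *Nr5a2* and *Foxl2* were instead highest of the WT libraries in replicate 4. In WT, *Nr5a2* had 221, 190, 223 and 284 CPM and *Foxl2* 90.9, 82.2, 87.7 and 94.1 CPM. With the granulosa marker mean as a covariate, the log2 fold change of *Cyp17a1* was −0.76 (edgeR adjusted p = 0.280), that of *Insl3* −0.53 (edgeR adjusted p = 0.4503) and that of *Star* −0.37 (edgeR adjusted p = 0.380). All 6 smooth muscle markers, genes of contractile cells of which some lie in the outer theca layer, had a log2 fold change below 0. The median was −0.46, and 5 of these markers had an unadjusted p under 0.05 in edgeR, against 5.1% of all genes lower at that p. Their summed level was 1919 to 2558 CPM in WT and 1417 to 1933 CPM in KO, and no marker was at 0. The 6 surface epithelium markers were also all below 0 (median −0.52), with 1 at an unadjusted p under 0.05 and a summed level of 27.9 to 54.8 CPM in WT and 20.7 to 38.4 CPM in KO. The part of smooth muscle or surface epithelium content in the differences of the 10 genes was not tested. Of the adrenal cortex genes, *Cyp11b1* had 65.8 to 107 CPM over the 7 libraries, whereas *Cyp21a1* and *Cyp11b2* did not exceed 3.35 and 1.77 CPM.

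Of 122 further genes of steroid production in 7 lists, 114 were tested and none was called in edgeR, with 14 lower and 4 higher in KO at an unadjusted p under 0.05 (15.8%, against 8.94% of all genes) and a lowest adjusted p of 0.162 in edgeR. DESeq2 called 1 of them, *Hsd17b11*. The other steroid enzymes had 5 of 16 tested genes at an unadjusted p under 0.05, all lower in KO, and a median log2 fold change of −0.14. *Hsd17b11*, a hydroxysteroid dehydrogenase of lipid droplets, had 55.3, 77.5, 58.4 and 94.0 CPM in WT and 42.2, 41.5 and 43.1 CPM in KO, without overlap (log2 fold change −0.76, SE 0.17, edgeR adjusted p = 0.245). *Hsd17b7*, which acts in cholesterol synthesis and on oestrone, had 329, 445, 451 and 701 CPM in WT and 193, 198 and 313 CPM in KO, also without overlap (log2 fold change −1.04, edgeR adjusted p = 0.305). *Cyp1b1*, which hydroxylates oestrogens, and *Hsd17b12* had log2 fold changes of −0.31 and −0.16.

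Among the 15 genes that bring cholesterol to mitochondria or store it, 11 had a log2 fold change below 0, with a median of −0.08. At an unadjusted p under 0.05 in edgeR, 4 were lower, against 5.1% of all genes. *Soat1*, which esterifies cholesterol for storage, had 666, 720, 731 and 765 CPM in WT and 556, 528 and 568 CPM in KO. The KO libraries were all well under the WT libraries, with a log2 fold change of −0.39 (SE 0.069, edgeR adjusted p = 0.162). The sterol carriers *Stard5*, *Stard4* and *Npc2* had log2 fold changes of −0.45, −0.30 and −0.20. Of 14 tested redox partners, *Idh1* and *H6pd*, which form NADPH, were lower at an unadjusted p under 0.05 (log2 fold changes −0.52 and −0.25). This was 14.3% of the list, against 8.94% of all genes at that p, 5.1% lower. *Cyb5a*, the cytochrome that aids the lyase step of CYP17A1, had −0.25 (edgeR adjusted p = 0.595), and *Cyb5r3*, the reductase of that cytochrome, had −0.13.

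Of 23 regulators of steroid genes, 15 were below 0 and 8 above, with a median of −0.02. At an unadjusted p under 0.05 were 4.35% of them, against 8.94% of all genes. The 1 such gene was *Nr4a1*, an orphan nuclear receptor gene induced by luteinizing hormone. It had 474, 409, 387 and 416 CPM in WT and 589, 595 and 473 CPM in KO, with overlap through KO replicate 4 (log2 fold change 0.39, edgeR adjusted p = 0.314). The next of that list were *Cebpa* (0.22), *Srebf2* (−0.16) and *Gata4* (0.14). The 24 genes of signalling below the LH receptor divided into 12 below and 12 above 0, with a median of −0.01. Of these, 4 had an unadjusted p under 0.05 in edgeR, 2 lower and 2 higher, against 8.94% of all genes. *Pde4d*, a phosphodiesterase that breaks down cAMP, had 25.3, 23.1, 23.8 and 21.2 CPM in WT and 27.6, 26.5 and 27.5 CPM in KO, each KO library above each WT library (log2 fold change 0.22, edgeR adjusted p = 0.372). *Prkar2a*, *Arrb1* and *Dusp1* had log2 fold changes of −0.25, −0.22 and 0.29. Of the 19 paracrine signals of the follicle wall, *Kit* (0.31) was higher and *Bmp4* (−0.26) lower at an unadjusted p under 0.05. This was 10.5% of the list, near the 8.94% of all genes. The next were *Inhbb* (0.58) and *Hhip* (−0.23), and the median was 0.12. The 3 tested genes of the *Hsd3b* family beside *Hsd3b1* had a median of 0.04 and none at an unadjusted p under 0.05.

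**Figure D5:**
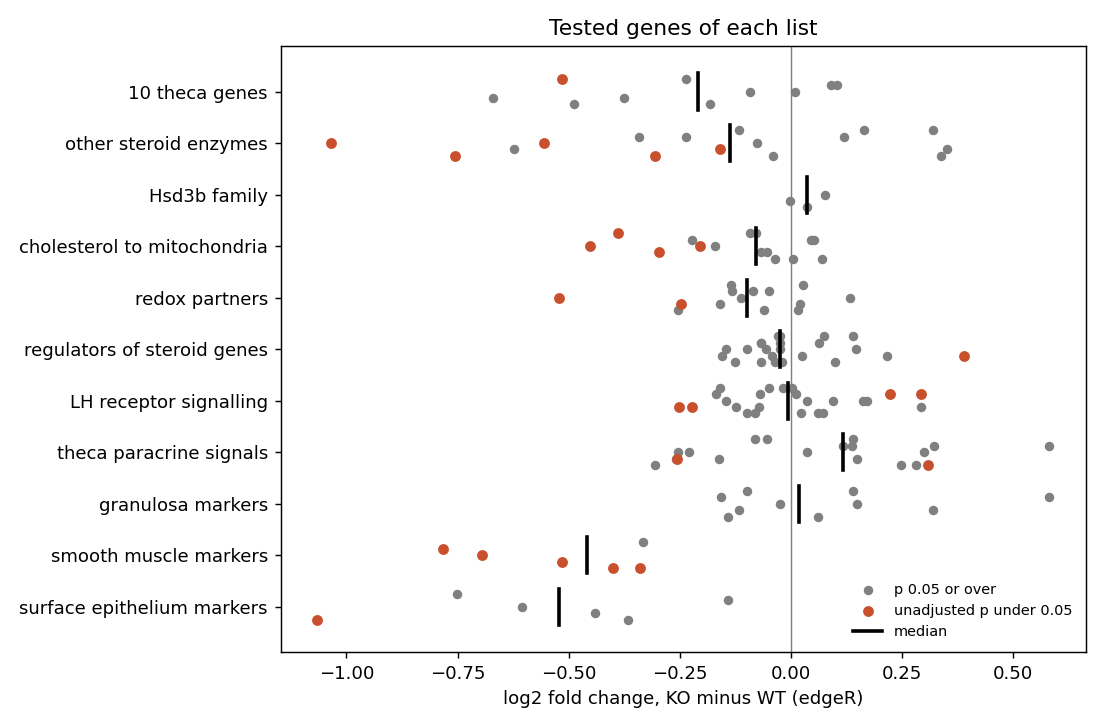
Log2 fold change (KO minus WT, edgeR) of every tested gene of the 10 theca genes, the wider steroid lists and 3 marker lists, with black lines at the medians and genes at an unadjusted p under 0.05 in red. The medians are −0.21 for the 10 theca genes, −0.14 for the other steroid enzymes and −0.46 for smooth muscle markers, while the lists of regulators and of LH receptor signalling have medians of −0.02 and −0.01.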

How the data were processed

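Ovarian stroma of 4 WT and 3 KO libraries was analysed, grouped by the genotype in the sample labels. The authors deposited Salmon's expected counts per transcript, made from paired-end reads of 100 bp of stranded mRNA libraries with the GENCODE M26 transcriptome on GRCm39, and per the file headers also TPM, which Salmon scales by effective length. The version of Salmon is not given in the sources used here.

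Transcripts were matched by Ensembl identifier to GENCODE M39 on GRCm39, and 137570 of 139225 (98.8%) matched, with 99.371% to 99.398% of the reads per library. Expected counts and TPM were summed per gene, and the sums of expected counts were rounded. Genes were tested with edgeR 4.0.16 in R 4.3.3 (TMM, filterByExpr, two-sided quasi-likelihood test), and p-values were adjusted over 19233 genes by the Benjamini–Hochberg method. The thresholds were those of the study. CPM used TMM factors. The common biological coefficient of variation was 0.127, well above counting error at this depth, and p-values measure the spread between pools of mice.

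Named were the 10 genes, *Pgr*, the 4 genes with the lowest p of each wider list, and the 5 genes nearest to *Cyp17a1* and to *Insl3* (mean log2 CPM of at least 3). Marker lists are given by their sums and medians. The members, lists and alternatives were chosen with earlier results of these data known. The alternatives were DESeq2 1.42.0, limma-voom and limma on log2(TPM + 0.5) (limma 3.58.1), median-of-ratios size factors, no low-count filter, a minimum of 10 counts per library, length offsets, a replicate block, a granulosa covariate and leaving out each library. The transcript fit and DESeq2 without WT replicate 4 were added after the values were seen. The code was tested on simulated counts.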

Additional observations from a re-analysis of the deposited data

Results flagged for a closer look

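Levels of the 10 genes and their transcripts were screened for a WT library far from the other 3, by the gap to its nearest neighbour divided by the range of the 4 libraries. Of 43 such tests, 3 exceeded Dixon's critical value, where chance gives about 1 in 20, and in each of the 3 the library was WT replicate 4. *Fdxr* had a ratio of 0.862, with 354 CPM in WT replicate 4 and 274 to 285 CPM in the others. For Lhcgr-202 the ratio was 0.868, with 81.6 TPM in that library and 55.7 to 59.1 TPM in the others. Por-202, a minor coding form of *Por*, had a ratio of 0.937, with 0.637 TPM in that library and 2.98 to 3.14 TPM in the others.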

How the results depend on the processing

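Over the 10 genes and 18 alternative settings, 177 of 180 log2 fold changes kept their direction and were, as in edgeR, not called, which takes both thresholds together. The exceptions were *Nr5a1*, which turned from 0.01 to −0.0071 without WT replicate 2 (range −0.0071 to 0.032 over the 7 fits that left out a library), and *Cyp17a1* and *Insl3*, which DESeq2 called without WT replicate 4 (2 of 10 genes called in place of 0). The count of genes with an unadjusted p under 0.05, 1 in edgeR, was 3 with DESeq2, 4 without a filter on low counts, 4 with the granulosa covariate, 2 with limma on TPM, 4 with DESeq2 without WT replicate 4, and 0 to 4 when each library was left out in edgeR. It was 4 without WT replicate 4, 3 without WT replicate 1, 2 without KO replicate 4 and 0 without KO replicate 2 or 3. Over all genes the count also moved. It was 1720 of 19233 in edgeR, 1676 of 19229 with DESeq2 and 2000 of 19233 with the granulosa covariate. Without a low-count filter it was 2251 of 32790, and with limma on TPM 1505 of 19233. In edgeR with a library left out it ran from 1166 of 19491 (KO replicate 2) to 2404 of 19513 (KO replicate 4). The cause of these shifts was not tested. With transcript length offsets and without WT replicate 2 the count among the 10 was also 1, but the gene was *Lhcgr* and *Hsd3b1* in that order. The size of single genes crossed the fold threshold of 0.5 in some settings, such as *Star* with −0.37 under the granulosa covariate, *Cyp17a1* with −0.46 under the replicate block and *Lhcgr* with −0.58 under length offsets. Genes called in the wider lists, 0 in edgeR, were 1 with DESeq2 and 1 with DESeq2 without WT replicate 4 (*Hsd17b11* in both). Over all genes, edgeR called 2 and DESeq2 145, while no filter gave 36, the minimum of 10 counts gave 6, limma on TPM gave 1, and leaving out each library gave 1 to 4.

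For same-numbered libraries of WT and KO, the correlations of their deviations from the group means were −0.03, 0.10 and 0.07 (replicates 2, 3 and 4). Replicates 3 and 4 correlated best with their own number, and replicate 2 did not. With so few libraries these values cannot settle whether the numbers mark pairs. With the replicate block, edgeR called 26 genes and DESeq2 186 over all genes, still none of the 10, of which 4 had an unadjusted p under 0.05 in each. Over all 19233 genes, 2221 had such a p in edgeR with the block and 1382 in DESeq2. In DESeq2 with the block, *Hsd3b1* (log2 fold change −0.27, DESeq2 adjusted p = 0.0419) and *Lhcgr* (−0.44, DESeq2 adjusted p = 0.0450) passed the threshold on the adjusted p and missed that on the fold change, and *Cyp11a1* had a DESeq2 adjusted p of 0.0608. In the wider lists the block gave 1 call in edgeR (*Hsd17b7*) and 4 in DESeq2 (*Hsd17b11*, *Hsd17b7*, *Idh1* and *Stard5*).

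Depth did not limit these genes, whose lowest, *Insl3*, had 20.5 CPM in its lowest library. With 4 pools against 3, intervals such as −0.82 to 0.07 for *Lhcgr* leave both a fall and no change possible. Reads shared between transcripts, and between *Insl3* and *Jak3*, cannot be assigned with certainty.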

Other observations

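The remaining marker lists of other cell types are given here as values. Of all genes tested, 8.94% had an unadjusted p under 0.05 in edgeR, 5.1% lower and 3.84% higher in KO. All 6 oocyte markers had a log2 fold change above 0, with a median of 0.28 and 2 at an unadjusted p under 0.05, and their summed level was 282 to 360 CPM in WT and 314 to 465 CPM in KO. Of the 4 genes of the cumulus response, 3 were above 0 and 2 had an unadjusted p under 0.05, with a median of 0.39 and a summed level of 163 to 200.9 CPM in WT and 148 to 266 CPM in KO. Of 5 endothelial markers, 4 were below 0 and 2 had an unadjusted p under 0.05, with a median of −0.13. Leukocyte, red blood cell and fibroblast markers, 5 genes each, had medians of 0.04, 0.20 and −0.04, with 0 genes at an unadjusted p under 0.05 in edgeR. The 10 granulosa markers had a median of 0.02 and also 0 at an unadjusted p under 0.05. Their part in the differences of the theca genes was not tested except for the granulosa covariate.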
